A study of Arabidopsis thaliana with 4 samples.

Results

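The effect of jasmonate (JA) in roots that were already supplied with cytokinin was examined by comparing 2 libraries of the 4 in the series. Both came from roots of 7-day-old Col-0 plants, the wild type, grown on solid medium with 50 nM BAP, a synthetic cytokinin. One of them (JA/cytokinin) also received 10 μM MeJA, a methyl ester of JA that plants convert to the active hormone, and the other (cytokinin) did not. The hormones were in the medium throughout growth, so the comparison describes roots that developed under them and not an early response. Values of the library with MeJA alone (JA) are quoted as levels in a few places, and the library without hormone was not used. Each condition had 1 library, so no difference below has a replicate check, and the treatment, the batch of plants and the library preparation cannot be told apart.

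JA is perceived in the nucleus by the F-box protein COI1, which in the presence of JA-isoleucine binds JAZ repressors and marks them for degradation, and this frees MYC transcription factors that activate, among others, the JAZ genes themselves. Cytokinin is perceived by histidine kinases such as WOL, and the signal passes through phosphotransfer proteins to type-B response regulators, which activate the genes of the type-A response regulators, inhibitors of the same pathway. In roots both hormones slow growth, and cytokinin also sets the pattern of xylem and phloem and the differentiation of the endodermis, the cell layer that carries the Casparian strip and suberin.

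Expression was given as FPKM, fragments scaled to transcript length and to the mapped fragments of the library, for 33565 genes. A gene was counted when its FPKM was above 0 in both libraries and at least 1 in at least one, which left 19559 genes, and ratios are JA/cytokinin over cytokinin on the log2 scale with no pseudocount, so that 1 is a 2-fold difference. JA/cytokinin was at least 2-fold higher for 1662 genes (8.5% of those counted) and at least 2-fold lower for 1217 (6.22%), with a median log2 ratio of 0.04. Every count of list or family members past 2-fold below is to be read beside these shares. A library had 98605532 reads with cytokinin and 115141812 with JA/cytokinin, from which the low FPKM values gave an estimated depth of 91.8% and 87.3% of the read pairs as mapped fragments. The intervals after log2 ratios are exact binomial 95% intervals on these estimated fragments, and they cover counting error only. As a description of how far genes of one level scatter, the central 95% of log2 ratios ran from -2.84 to 3.90 for the lowest-expressed of 10 equal classes and from -1.11 to 1.27 for the seventh. Ribosomal RNA, annotated as 4 genes, made up 0.614% of the summed FPKM with cytokinin and 4.89% with JA/cytokinin, and the part of this in the ratios was not tested. With total FPKM of nuclear protein-coding genes made equal, every log2 ratio moved by 0.03. That total includes AT2G01021, a 102-base annotation of uncertain value, with 949 FPKM with cytokinin and 11038 with JA/cytokinin. Of 192 named list members, 49 overlap another annotated gene, among them JAZ10, AT3G22275, CASP1, CHS and PP2-A1, and as it is not stated whether counting used strand, reads of both genes cannot be told apart.

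**Figure D1:**
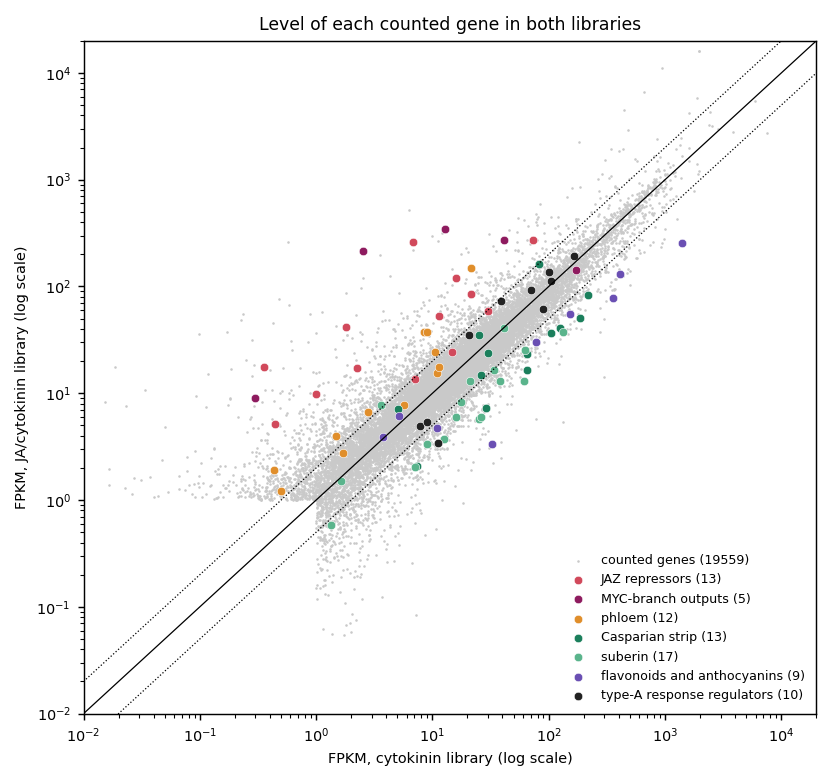
FPKM of the 19559 counted genes in the cytokinin library (x axis) and the JA/cytokinin library (y axis), both on log scales, 1 point per gene, with the line of equality and dotted lines at 2-fold. Members of 7 gene lists are coloured, and the JAZ and MYC-branch genes lie mostly above the upper dotted line, the Casparian strip, suberin and flavonoid genes mostly below the lower one.

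Root tissue markers were present in both libraries. All 9 root tissue markers were counted, among them PYK10, the main beta-glucosidase of root ER bodies, with 5928 FPKM with cytokinin and 5461 with JA/cytokinin. The levels of these markers were not equal, as 7 of the 9 were lower with JA/cytokinin, 3 of them at least 2-fold (CASP1, COBL9 and TIP2;3), with a median log2 ratio of -0.70, and their part in the results below was not tested. The 11 shoot lineage genes (YABBY and stomatal genes) summed to 0.380 and 0.641 FPKM, and none was counted. Nuclear photosynthesis genes were low, with a sum of 110.1 and 72.9 FPKM over 19 genes. Of the 13 that were counted, 2 were at least 2-fold lower with JA/cytokinin, PSBO1 (17.1 and 5.84 FPKM) and RBCS1A (1.99 and 0.920 FPKM). As the RNA came from whole roots, fewer cells of a type and less RNA per cell cannot be told apart in any of the values that follow.

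All 13 JAZ genes, which encode the repressors of JA signaling, had higher FPKM with JA/cytokinin than with cytokinin, 10 of them at least 2-fold, against 8.5% of all counted genes. Their median log2 ratio was 2.91, beside 0.04 over all counted genes, and 9 lay above the central 95% of genes of similar level. JAZ10 (AT5G13220, chromosome 5 from 4218786 to 4221077 in TAIR10.1), a JAZ with splice forms that resist degradation, had 6.85 FPKM with cytokinin and 259.6 with JA/cytokinin, a log2 ratio of 5.24 (5.12 to 5.37). AT3G22275, annotated as a jasmonate ZIM-domain protein, had 0.358 and 17.5 FPKM (5.61, 4.76 to 6.62), the highest ratio of the family. JAZ5 had 1.81 and 41.8 FPKM (4.53, 4.30 to 4.77). The most abundant JAZ in both libraries was JAZ1, with 73.3 and 273 FPKM and a log2 ratio of 1.90 (1.85 to 1.95). The lowest genes of the family with cytokinin, AT3G22275, JAZ8 (0.441 and 5.12 FPKM) and JAZ7 (0.988 and 9.85 FPKM), had log2 ratios of 5.61, 3.54 and 3.32. The 3 members under 2-fold were JAZ12 (29.8 and 58.6 FPKM), JAZ4 (7.09 and 13.5 FPKM) and JAZ11 (14.7 and 24.1 FPKM), with log2 ratios of 0.97, 0.93 and 0.71. Summed over the family, FPKM was 187 with cytokinin and 978 with JA/cytokinin.

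MYC factors bind the G-box, CACGTG, which reads the same on both strands. In the 250 bases upstream of the annotated gene start, 5 of the 13 JAZ genes held a G-box, beside 6.57% of 26684 nuclear protein-coding genes. Of the genes at least 2-fold higher with JA/cytokinin 8.01% held one, of those at least 2-fold lower 5.65%, and of those within 2-fold 7.28%. In the flavonoid list 6 of 16 windows held one, of which CHS, F3H and MYB12 were at least 2-fold lower and DFR, PAP2 and UF3GT were not counted. The 150 bases directly upstream of the gene start are shown for the 5 JAZ genes and for MYB12, a flavonoid regulator that was lower with JA/cytokinin (10.9 and 4.72 FPKM), because they place the same motif beside opposite differences. They are printed 5′ to 3′ on the strand of the gene, from the TAIR10.1 genome, with the G-box in capitals. A match is a description of letters and not a tested binding site.
AT3G22275 (chr3:7879811-7879960, minus strand): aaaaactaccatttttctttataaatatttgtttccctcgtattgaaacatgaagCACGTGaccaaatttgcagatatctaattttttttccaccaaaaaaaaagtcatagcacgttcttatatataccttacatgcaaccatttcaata
JAZ8 (chr1:10596202-10596351, plus strand): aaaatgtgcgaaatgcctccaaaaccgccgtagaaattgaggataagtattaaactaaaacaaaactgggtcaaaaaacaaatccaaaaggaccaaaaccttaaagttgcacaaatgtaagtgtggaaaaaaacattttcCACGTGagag
JAZ7 (chr2:14572880-14573029, plus strand): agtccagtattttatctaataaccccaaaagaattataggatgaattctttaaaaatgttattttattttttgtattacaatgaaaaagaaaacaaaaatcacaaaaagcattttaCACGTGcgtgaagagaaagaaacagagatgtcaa
JAZ2 (chr1:28150447-28150596, minus strand): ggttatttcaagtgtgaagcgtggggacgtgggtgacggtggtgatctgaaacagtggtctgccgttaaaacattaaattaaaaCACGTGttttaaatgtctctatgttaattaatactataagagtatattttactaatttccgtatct
JAZ3 (chr3:6119557-6119706, plus strand): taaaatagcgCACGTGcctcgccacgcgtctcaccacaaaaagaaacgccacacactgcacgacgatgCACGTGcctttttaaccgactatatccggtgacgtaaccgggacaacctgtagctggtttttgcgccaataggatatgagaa
MYB12 (chr2:19476176-19476325, plus strand): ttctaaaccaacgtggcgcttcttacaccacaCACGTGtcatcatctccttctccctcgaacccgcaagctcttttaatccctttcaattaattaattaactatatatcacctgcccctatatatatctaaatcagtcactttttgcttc
In JAZ8 and JAZ7 the motif began 10 and 34 bases before the gene start, in JAZ2 66 and in AT3G22275 95. JAZ3, with log2 ratio 1.98, held a pair of G-boxes that began 140 and 82 bases before it. The JAZ genes with the next highest ratios after AT3G22275, JAZ10 and JAZ5, held no G-box in this window. The paper names CACATG, a variant of the G-box, as a putative MYC2-binding sequence in the AHP6 promoter. There its yeast assay gave possible binding, but its ChIP found no direct interaction of MYC2 with that promoter. The variant CACATG, on either strand, lay at position -65 from the gene start in JAZ10 and at -19 in JAZ9. It stood upstream of 15.5% of genes at least 2-fold higher, 15.1% of those at least 2-fold lower and 10.5% of those within 2-fold.

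Genes that convert or inactivate JA had higher FPKM with JA/cytokinin in 9 of 10 counted cases. At least 2-fold higher were 8, against 8.5% of all counted genes, and the list had a median log2 ratio of 1.94. AT2G38240 and JRG21, oxygenases of the family that hydroxylates JA and so inactivates it, had 0.112 and 7.404 FPKM (6.04, 5.003 to 7.34) and 1.13 and 57.3 FPKM (5.66, 5.33 to 6.02). ST2A, which sulfates hydroxylated JA, had 9.30 FPKM with cytokinin and 75.1 with JA/cytokinin (3.01, 2.90 to 3.13). ILL6, an amidohydrolase that cleaves JA-isoleucine, had 6.68 and 29.8 FPKM (2.16, 2.04 to 2.28). CYP94C1, CYP94B3 and CYP94B1, cytochromes P450 that oxidize JA-isoleucine, were at least 2-fold higher as well, CYP94B1 with 16.7 and 34.6 FPKM. JAR1, the enzyme that makes JA-isoleucine, was the only counted member that was lower, with 36.6 and 29.6 FPKM (-0.31, -0.38 to -0.24).

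JA synthesis genes differed less. Of 11 counted, 10 were higher and 5 at least 2-fold, against 8.5% of all counted genes, with a median log2 ratio of 0.95. AOS, the allene oxide synthase, had 17.3 FPKM with cytokinin and 56.2 with JA/cytokinin (1.70, 1.62 to 1.79), and OPR3, the reductase of the next steps, had 33.4 and 103 FPKM (1.63, 1.56 to 1.70). Among the 13-lipoxygenases, which start the pathway, LOX6 had 16.5 and 39.5 FPKM (1.26, 1.19 to 1.33), whereas LOX3 (0.157 and 1.07 FPKM) and LOX4 (0.556 and 1.44 FPKM) were at low levels in both libraries. LOX2, the main leaf form, was listed at 0 with cytokinin and at 0.0446 FPKM with JA/cytokinin. KAT2, a thiolase of the beta-oxidation that shortens the JA side chain, had 158 and 125 FPKM (-0.34, -0.38 to -0.31). Of 9 genes of the receptor and transcription factors, 8 were within 2-fold, with a median log2 ratio of 0.05. COI1 had 18.8 and 15.2 FPKM, and MYC2 55.7 and 72.3 FPKM (0.38, 0.33 to 0.42). MYC3, a close relative of MYC2, had 17.5 and 11.3 FPKM (-0.64, -0.74 to -0.54), and NINJA, the adaptor of the JAZ corepressor complex, had 41.6 and 62.2 FPKM (0.58, 0.52 to 0.64). JAM1, a bHLH protein that competes with MYC2, was the only member past 2-fold, with 1.67 FPKM with cytokinin and 10.3 with JA/cytokinin (2.63, 2.39 to 2.87).

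Of 11 outputs of the MYC branch 5 were counted, with a median log2 ratio of 4.75. At least 2-fold higher with JA/cytokinin were 4 of them, against 8.5% of all counted genes. VSP2 (AT5G24770, chromosome 5 from 8500468 to 8502224), a vegetative storage protein and a common JA marker, had 2.54 FPKM with cytokinin and 214 with JA/cytokinin (6.39, 6.16 to 6.63). VSP1 had 40.8 and 273 FPKM (2.74, 2.68 to 2.81), while the library with JA alone had 26.2 FPKM. TAT3, a tyrosine aminotransferase, had 12.8 and 344 FPKM (4.75, 4.67 to 4.83), and ANAC055, a NAC factor that acts after MYC2, had 0.297 and 9.11 FPKM (4.94, 4.28 to 5.69). Against the list, JR1, a lectin, had 173 and 143 FPKM (-0.27, -0.30 to -0.24). CORI3, a cystine lyase also called JR2, stayed under the filter with 0.0192 and 0.746 FPKM. In the ERF branch, which ethylene shares, 4 of 9 genes were counted, 2 of them at least 2-fold higher, beside 8.5% of all counted. PR4 had 329.9 and 1040.2 FPKM (1.66, 1.63 to 1.68), and ERF1, a regulator of the branch, had 0.414 and 1.76 FPKM. ORA59, a regulator as well, had 1.49 and 1.81 FPKM (0.28, -0.21 to 0.77), and the chitinase gene PR3 had 21.3 and 21.8 FPKM (0.03, -0.08 to 0.15). The defensin genes PDF1.2a, PDF1.2b and PDF1.2c were listed at 0 in both libraries.

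**Figure D2:**
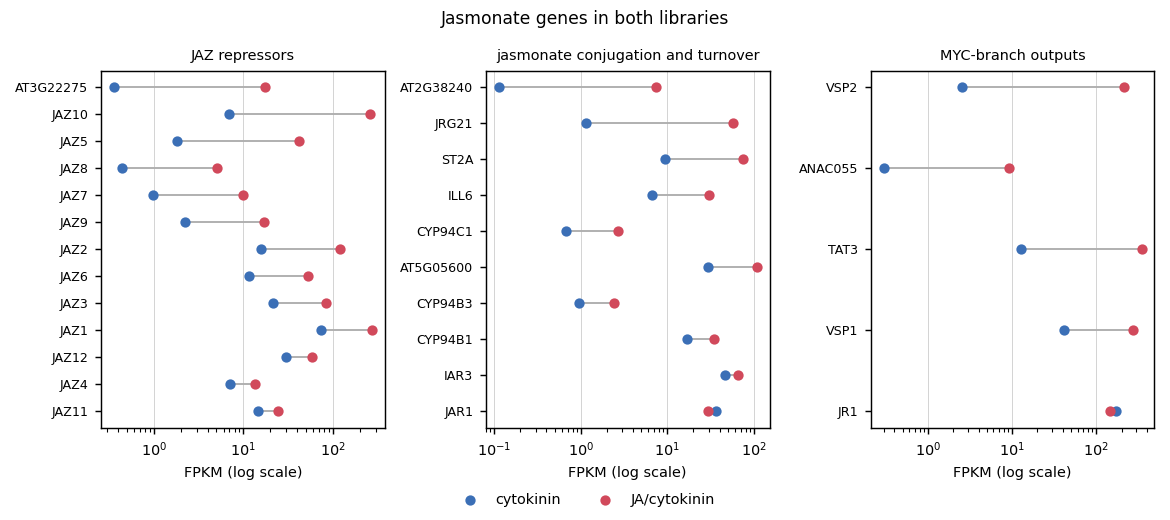
FPKM (x axes, log scale) of the counted JAZ, JA conjugation and turnover, and MYC-branch genes (y axes) in the cytokinin library (blue) and the JA/cytokinin library (red), 1 value per gene and library, with the genes ordered by log2 ratio. All JAZ genes lie further right with JA/cytokinin, and JAR1 and JR1 lie slightly further left.

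Defence metabolism differed by branch. Aliphatic glucosinolates are sulfur compounds made from methionine, and all 13 counted genes of their synthesis were higher with JA/cytokinin. The median log2 ratio was 1.28, and 8 were at least 2-fold higher, against 8.5% of all counted genes. BCAT4, which starts the methionine chain elongation, had 14.7 and 104 FPKM (2.82, 2.72 to 2.93), and MAM1, which elongates the chain, had 7.88 and 24.5 FPKM (1.64, 1.51 to 1.77). FMO GS-OX1, which oxidizes the side chain, had 0.738 and 5.92 FPKM (3.005, 2.59 to 3.44). Their regulator MYB28 had 20.6 and 50.1 FPKM (1.28, 1.196 to 1.36), whereas MYB29, its close relative, was listed at 0.0153 and 0 FPKM. Sulfate genes were mostly near level (2 of 15 at least 2-fold higher), but SULTR2;1, a sulfate transporter of the vasculature, had 4.24 FPKM with cytokinin and 49.0 with JA/cytokinin (3.53, 3.39 to 3.67). APK2, which makes the sulfate donor used in the last step of glucosinolate synthesis, had 119 and 266 FPKM (1.16, 1.12 to 1.203).

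Indole glucosinolates derive from tryptophan, and their 19 genes, all counted, were mixed, with a median log2 ratio of 0.81. At least 2-fold higher were 4, against 8.5% of all counted genes, and at least 2-fold lower 3, against 6.22%. CYP79B2, which turns tryptophan into indole-3-acetaldoxime, had 106 and 256 FPKM (1.28, 1.24 to 1.31), and GGP1, a peptidase of the core pathway, had 173 and 428 FPKM (1.31, 1.27 to 1.34). Their regulators went separate ways: MYB34 had 147 and 261 FPKM (0.83, 0.80 to 0.87), while MYB51 had 8.95 and 2.61 FPKM (-1.78, -2.01 to -1.55) and MYB122 had 3.02 and 1.41 FPKM (-1.10, -1.47 to -0.75). IGMT1 and IGMT2, methyltransferases of the indole ring, had 26.9 and 71.6 FPKM and 47.9 and 9.46 FPKM, but each has a near copy (IGMT4, 92.3% identical to IGMT1, and IGMT3, 96.3% identical to IGMT2), so their reads may be split with those copies. Upstream, 10 of 11 tryptophan synthesis genes were higher, though only ASA1, the anthranilate synthase subunit that sets the flux, passed 2-fold (26.1 and 84.0 FPKM, 1.69, 1.62 to 1.76).

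ER bodies store beta-glucosidases, and 6 of 12 counted genes of the list were at least 2-fold higher, with none at least 2-fold lower. The shares over all counted genes were 8.5% and 6.22%. BGLU18, the glucosidase of wound-induced ER bodies, had 0.363 and 10.8 FPKM (4.89, 4.39 to 5.44). BGLU21 and BGLU22, near copies that are 91.5% identical, had 288 and 1129 FPKM and 264 and 1017 FPKM, with log2 ratios of 1.97 and 1.94. PYK10, the most abundant of them, differed by -0.12. The 8 genes of the thalianol and marneral triterpene clusters, which are expressed in roots, stayed nearer level, with 2 at least 2-fold higher, MRN1 (78.8 and 162 FPKM) and CYP705A12 (69.2 and 153 FPKM). With the median log2 ratio set to 0, MRN1 was just under 2-fold.

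Flavonoid genes were lower with JA/cytokinin. Of 9 counted, 7 were at least 2-fold lower, against 6.22% of all counted genes, with a median log2 ratio of -1.47, and 6 lay below the central 95% of genes of similar level. CHS (AT5G13930, chromosome 5 from 4488476 to 4490264), the first enzyme, had 1388 FPKM with cytokinin and 256 with JA/cytokinin (-2.44, -2.46 to -2.42), and FLS1, the flavonol synthase, had 359 and 78.0 FPKM (-2.20, -2.25 to -2.16). F3'H, which hydroxylates the B ring, had 32.5 and 3.37 FPKM (-3.27, -3.44 to -3.09). CHI, F3H and the glucosyltransferase UGT78D2 had log2 ratios of -1.47, -1.66 and -1.36, and MYB12, their flavonol regulator, had one of -1.201 (-1.39 to -1.01). The late anthocyanin genes LDOX and 5MAT were listed at 0 in both libraries, as was TT8, annotated as a bHLH protein. DFR was listed at 0 with cytokinin and at 0.0498 FPKM with JA/cytokinin. PAL1, the entry to the whole phenylpropanoid pathway, had 595 and 278 FPKM (-1.10, -1.12 to -1.08), while 4CL1 had 242 and 322 FPKM (0.41, 0.39 to 0.44).

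The study asked whether JA opposes the cytokinin response, and the type-A response regulator genes are its common readout. The paper reports weaker fluorescence of an ARR5 reporter with JA/cytokinin than with cytokinin alone. In its PCR, JA alone reduced ARR genes and both hormones together did not. The baseline of that statement is not named, so it may differ from the cytokinin library used here. Reporter fluorescence in the tissue and RNA of whole roots are different measures. Of the 10 type-A genes, all counted, 6 were above and 4 below a ratio of 1, with a median log2 ratio of 0.16. None was at least 2-fold higher with JA/cytokinin, against 8.5% of all counted genes, and 1 was at least 2-fold lower, against 6.22%. That gene was ARR15 (AT1G74890, chromosome 1 from 28131447 to 28133025), with 11.05 FPKM with cytokinin and 3.41 with JA/cytokinin (-1.70, -1.97 to -1.43), below the central 95% of genes of similar level. ARR5 had 105 and 112 FPKM (0.10, 0.05 to 0.15), and ARR6 had 70.2 and 92.8 FPKM (0.40, 0.35 to 0.46). ARR7 had 20.7 and 35.03 FPKM (0.76, 0.63 to 0.89), and the highest ratio was that of ARR9, with 38.5 and 73.0 FPKM (0.92, 0.86 to 0.99). The genes of low level, ARR15, ARR16 (7.86 and 4.96 FPKM) and ARR17 (8.99 and 5.40 FPKM), were all lower with JA/cytokinin, and ARR3 (89.1 and 62.1 FPKM) was the only other one. ARR6, ARR8 and ARR9 each overlap another annotated gene.

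Upstream of them little differed by 2-fold. The receptor gene WOL had 50.8 and 41.8 FPKM (-0.28, -0.32 to -0.24) and AHK3 16.2 and 17.2 FPKM. Among the phosphotransfer proteins, AHP4 had 0.585 and 1.18 FPKM (1.01, 0.19 to 1.88), while AHP6, an inhibitory member that allows protoxylem to form, stayed under the filter at 0.139 and 0.578 FPKM. The library with JA alone had 1176 FPKM of AHP6. This level rests on 1 library and was not checked against the PCR of the study. There, plants overexpressing AHP6 had more of its transcript than JA-treated Col-0. Type-B regulators were level apart from ARR11, with 0.861 and 3.78 FPKM (2.14, 1.79 to 2.50). Of the cytokinin oxidases, which break the hormone down, CKX4 had 10.1 and 21.9 FPKM (1.12, 1.01 to 1.23) and CKX5 16.1 and 16.4 FPKM. Genes that make or activate cytokinin held more differences, 4 of 9 counted at least 2-fold higher: IPT3, an isopentenyltransferase of the phloem, had 6.04 and 18.1 FPKM (1.58, 1.42 to 1.74), and LOG3, which releases the active base, had 0.774 and 4.11 FPKM (2.41, 1.89 to 2.97). CYP735A2, which makes trans-zeatin forms, had 43.1 and 40.7 FPKM (-0.08, -0.15 to -0.01).

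**Figure D3:**
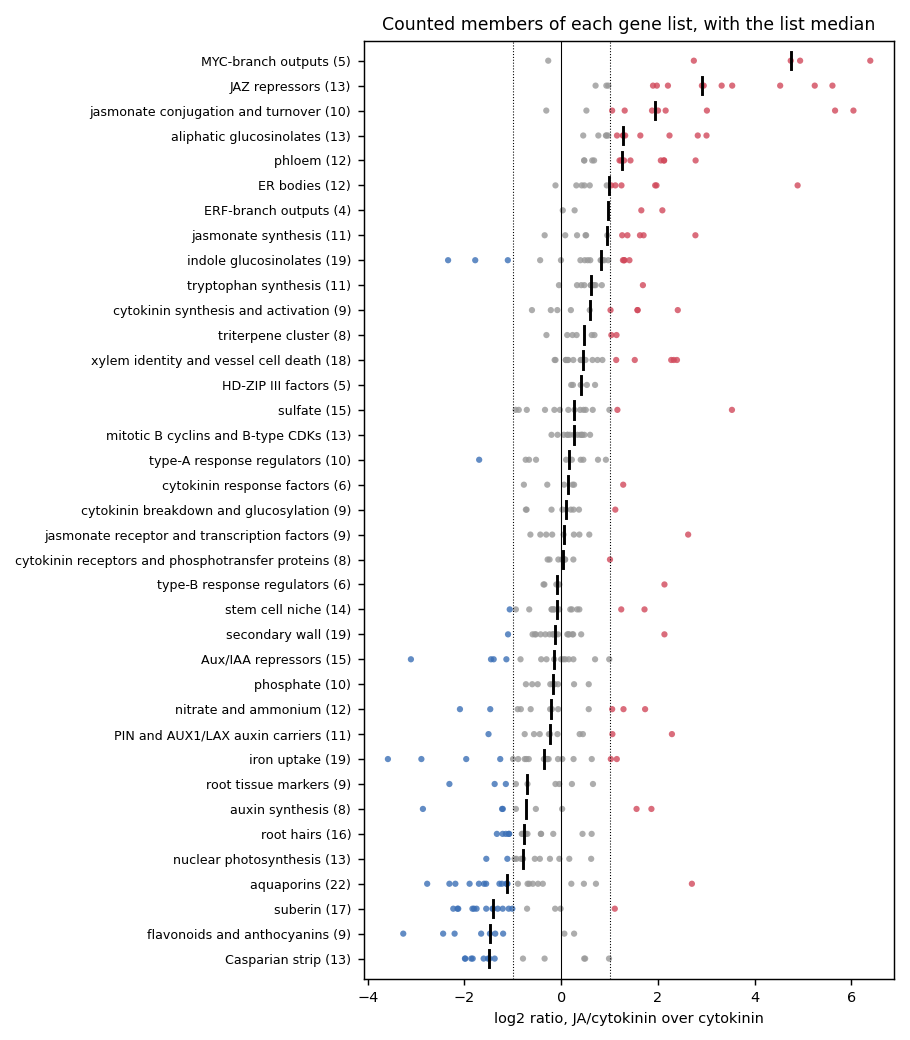
Log2 ratio of JA/cytokinin over cytokinin (x axis) of every counted member of each gene list (y axis, number counted in brackets), with black bars at list medians and dotted lines at 2-fold. Red points are at least 2-fold higher and blue points at least 2-fold lower with JA/cytokinin, and the medians run from 4.75 for MYC-branch outputs to -1.48 for the Casparian strip.

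Xylem was the tissue at the centre of the study. Of 18 counted genes of xylem identity and vessel cell death, 16 were higher with JA/cytokinin. At least 2-fold higher were 5, against 8.5% of all counted genes. These 5 fell in the lowest classes of level, where 25.7% (class 1) and 14.1% (class 2) of genes were at least 2-fold higher. The list had a median log2 ratio of 0.46, and no member lay outside the central 95% of genes of similar level. BFN1, a nuclease of dying vessel cells, had 1.09 and 5.72 FPKM (2.39, 1.98 to 2.83). VND6, a master NAC factor of metaxylem vessels, had 1.22 and 3.50 FPKM (1.52, 1.12 to 1.94), and VND7, its protoxylem counterpart, had 0.678 and 1.22 FPKM (0.85, 0.29 to 1.43). These are low levels. The more abundant XCP1 and XCP2, proteases of vessel cells, had 30.3 and 40.2 FPKM and 23.9 and 31.6 FPKM, log2 ratios of 0.41 and 0.40. Secondary wall genes were nearly level, with a median log2 ratio of -0.13 over 19 genes. The 3 cellulose synthases of the secondary wall, CESA4, CESA7 and CESA8, had log2 ratios between -0.18 and 0.13. FAH1, which makes syringyl lignin precursors, went against the list with 15.6 and 68.7 FPKM (2.13, 2.05 to 2.22). The 5 HD-ZIP III factors, which pattern xylem, were all slightly higher, from 0.21 for ATHB15 to 0.70 for PHV.

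Phloem genes were higher as a list. All 12 were higher with JA/cytokinin, 8 of them at least 2-fold, against 8.5% of all counted genes. The median log2 ratio was 1.27, and 3 lay above the central 95% of genes of similar level. PP2-A1 (AT4G19840, chromosome 4 from 10773804 to 10775942), a lectin of companion cells, had 21.6 FPKM with cytokinin and 148 with JA/cytokinin (2.78, 2.70 to 2.86). SUC2, the companion cell sucrose transporter, had 9.01 and 37.6 FPKM (2.06, 1.95 to 2.17), and APL, the MYB factor that gives phloem its identity, had 8.52 and 37.1 FPKM (2.12, 1.99 to 2.26). NAC86 and NAC45, which direct the loss of the nucleus in sieve elements, had 0.433 and 1.89 FPKM and 0.499 and 1.23 FPKM. Early protophloem regulators differed less, such as OPS (11.4 and 17.8 FPKM) and CVP2 (5.64 and 7.84 FPKM), both under 2-fold. With a pseudocount of 1 the median of the list was 1.00.

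Genes of the endodermal barriers were lower with JA/cytokinin. Of the 13 Casparian strip genes, 8 were at least 2-fold lower, against 6.22% of all counted genes, and none at least 2-fold higher. The median log2 ratio was -1.48, and 7 lay below the central 95% of genes of similar level. CASP1, which with its relatives forms the membrane platform of the strip, had 218 FPKM with cytokinin and 83.8 with JA/cytokinin (-1.38, -1.44 to -1.32). Its relatives CASP2, CASP4 and CASP5 had log2 ratios from -1.83 to -1.48. ESB1, a dirigent protein, and PER64, a peroxidase, which polymerize the lignin of the strip, had 185 and 51.0 FPKM (-1.86, -1.91 to -1.81) and 124 and 40.7 FPKM (-1.60, -1.67 to -1.53). GSO1, the receptor kinase also named SGN3 that surveys the strip, had 28.8 and 7.24 FPKM (-1.99, -2.07 to -1.91). Its peptide ligand gene AT4G34600 (CIF2) went the other way with 82.4 and 163 FPKM (0.99, 0.92 to 1.054), just under 2-fold. MYB36, the factor that switches the CASP genes on, had 25.9 and 14.97 FPKM (-0.79, -0.91 to -0.67), a smaller difference than any CASP gene named here.

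Of the 17 suberin genes, 13 were at least 2-fold lower, against 6.22% of all counted genes, and 1 at least 2-fold higher, against 8.5%. The median log2 ratio was -1.41, and 9 lay below the central 95% of genes of similar level. CYP86A1 (AT5G58860, chromosome 5 from 23765791 to 23768111), which hydroxylates the fatty acids of suberin, had 61.8 FPKM with cytokinin and 13.1 with JA/cytokinin (-2.23, -2.33 to -2.14). ABCG6, a transporter needed for suberin, had 26.4 and 5.96 FPKM (-2.15, -2.27 to -2.03), and ASFT, which adds ferulate, had 133 and 37.4 FPKM (-1.84, -1.90 to -1.78). GPAT5, which builds the glycerol ester, had 12.6 and 3.75 FPKM (-1.75, -1.93 to -1.57). Against the list, FAR1, a fatty acyl reductase, had 3.63 and 7.82 FPKM (1.11, 0.92 to 1.299), whereas its relatives FAR4 and FAR5 were lower by log2 ratios of -0.71 and -1.01. The regulators were also divided: MYB53 (8.91 and 3.33 FPKM) and MYB93 (16.0 and 6.05 FPKM) were at least 2-fold lower and MYB92 was level (40.9 and 40.6 FPKM). In the library with JA alone, CYP86A1 had 2.32 FPKM, CYP86B1 0.847 and GPAT5 1.21, below both libraries with cytokinin. SCR and SHR, which specify the endodermis, had 31.4 and 16.4 FPKM (-0.94) and 11.9 and 13.8 FPKM (0.22), both within 2-fold.

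**Figure D4:**
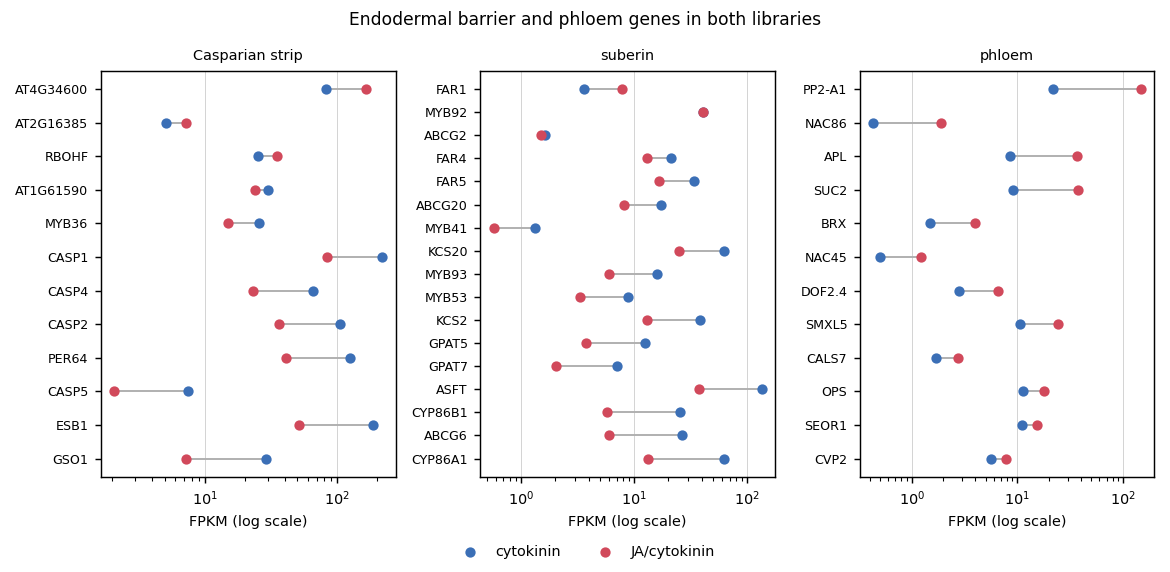
FPKM (x axes, log scale) of Casparian strip, suberin and phloem genes (y axes) in the cytokinin library (blue) and the JA/cytokinin library (red), 1 value per gene and library. Most barrier genes lie further left with JA/cytokinin, except AT4G34600, AT2G16385, RBOHF and FAR1, and all 12 phloem genes lie further right.

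Epidermal genes leaned the same way. Of 16 root hair genes, 14 were lower with JA/cytokinin, with a median log2 ratio of -0.77. At least 2-fold lower were 5, against 6.22% of all counted genes. They were genes of hair growth: the extensin-like LRX1 (121 and 48.1 FPKM, -1.33, -1.37 to -1.29), PRP3 (629 and 272 FPKM), COBL9 (38.7 and 17.5 FPKM), the peroxidase AT1G30870 (225 and 106 FPKM) and the NADPH oxidase RHD2 (29.9 and 14.2 FPKM). The regulators RHD6 (13.1 and 17.7 FPKM, 0.44) and RSL4 (29.5 and 26.3 FPKM, -0.16) were within 2-fold. Among stem cell niche genes, WOX5, which marks the quiescent centre, had 1.54 and 3.64 FPKM (1.24, 0.81 to 1.69), JKD, a partner of SCR, had 19.9 and 9.54 FPKM (-1.06, -1.18 to -0.95), and PLT1, PLT2 and PLT3, which maintain the niche, had log2 ratios of -0.04, 0.38 and 0.33. None of the 13 mitotic B cyclin, B-type CDK and KNOLLE genes passed 2-fold, and their median log2 ratio was 0.26.

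Auxin genes differed gene by gene. PIN4, an efflux carrier of the root tip (AT2G01420, chromosome 2 from 180033 to 183764), had 36.4 FPKM with cytokinin and 12.9 with JA/cytokinin (-1.503, -1.58 to -1.43), and was the only carrier at least 2-fold lower. PIN5, which acts at the endoplasmic reticulum, had 3.18 and 6.62 FPKM (1.06, 0.81 to 1.32), and PIN6 had 0.244 and 1.19 FPKM (2.29, 1.66 to 2.98). PIN2, PIN3 and PIN7 stayed within 2-fold, with PIN2, the carrier of the epidermis and cortex, at 95.5 and 64.6 FPKM. Among the YUC enzymes, which make auxin, YUC5 (3.36 and 12.2 FPKM, 1.87, 1.66 to 2.07) and YUC9 (6.79 and 20.004 FPKM, 1.56, 1.41 to 1.71) were higher, while YUC3 (6.18 and 2.67 FPKM), YUC6 (7.15 and 3.06 FPKM) and YUC7 (1.14 and 0.158 FPKM) were at least 2-fold lower. Of 15 counted Aux/IAA repressor genes, 4 were at least 2-fold lower, against 6.22% of all counted genes, and none at least 2-fold higher. The largest in level was IAA17, with 274 and 125 FPKM (-1.13, -1.17 to -1.09), and IAA3 and IAA19 had log2 ratios of -1.45 and -1.40.

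Aquaporins, the water channels, were lower as a group. Of 22 genes, all counted, 12 were at least 2-fold lower, against 6.22% of all counted genes, and 1 at least 2-fold higher, against 8.5%. Their median log2 ratio was -1.12, and their summed FPKM was 6506 with cytokinin and 2943 with JA/cytokinin. TIP1;1, a vacuolar channel (AT2G36830, chromosome 2 from 15445294 to 15446621), had 942 and 253 FPKM (-1.89, -1.92 to -1.87), and TIP1;2 had 1268 and 432 FPKM (-1.55, -1.57 to -1.53). At the plasma membrane PIP2;2 and PIP2;3, whose transcripts are 94.9% identical, had 477 and 147 FPKM and 98.2 and 21.5 FPKM, and PIP2;1 had 457 and 189 FPKM (-1.28, -1.31 to -1.25). PIP2;5 went against the family, with 6.68 FPKM with cytokinin and 43.5 with JA/cytokinin (2.70, 2.57 to 2.84). The library with JA alone held 762 FPKM of TIP1;1, 755 of TIP1;2 and 463 of PIP2;2, in each case between the cytokinin and the JA/cytokinin library.

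**Figure D5:**
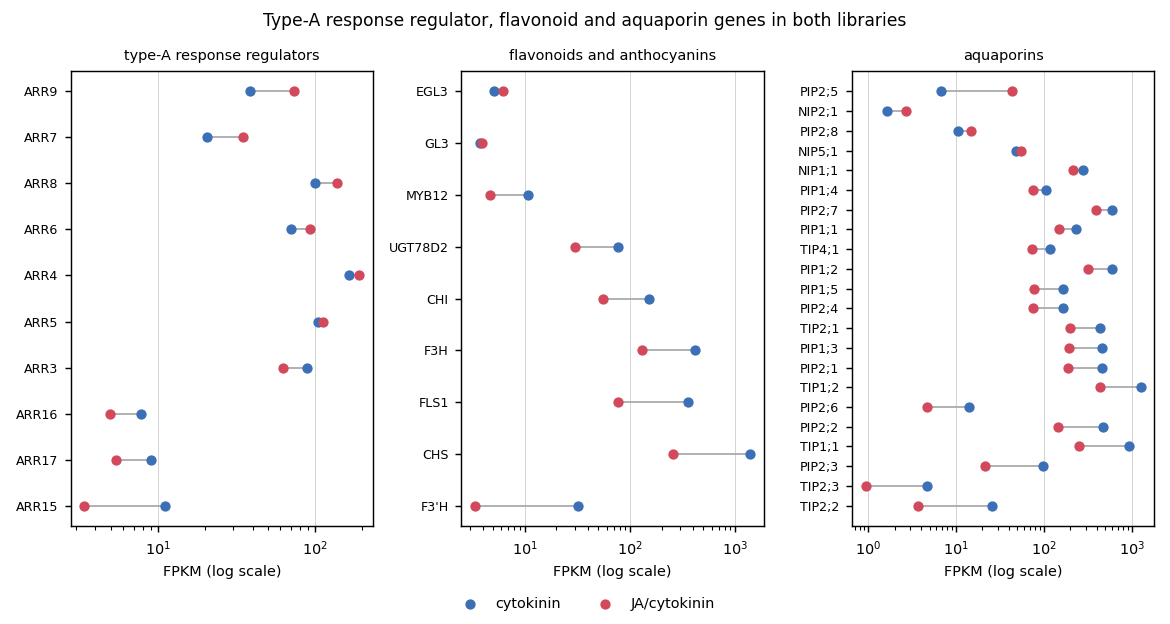
FPKM (x axes, log scale) of type-A response regulator, flavonoid and aquaporin genes (y axes) in the cytokinin library (blue) and the JA/cytokinin library (red), 1 value per gene and library. Only ARR15 among the type-A genes is separated by more than 2-fold, whereas 7 flavonoid genes and 12 aquaporins lie at least 2-fold lower with JA/cytokinin and PIP2;5 lies higher.

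Nutrient genes differed by element. Of 19 counted iron uptake genes, 4 were at least 2-fold lower with JA/cytokinin, against 6.22% of all counted genes. All 4 were below 10 FPKM in both libraries: IRT1, the iron transporter (2.42 and 0.202 FPKM, -3.58, -4.51 to -2.77), FRO2, the iron reductase (1.18 and 0.159 FPKM), and the regulators BHLH101 (2.21 and 0.565 FPKM) and BHLH38 (8.49 and 3.55 FPKM). The library with JA alone had 399.6 FPKM of IRT1 and 83.9 of FRO2. NAS2, a nicotianamine synthase, and MYB10 went against the list with log2 ratios of 1.15 and 1.03. Among nitrogen genes, the ammonium transporters AMT1;1 (75.6 and 27.3 FPKM, -1.47, -1.54 to -1.39) and AMT1;3 (7.76 and 1.82 FPKM, -2.09, -2.35 to -1.84) were lower. The xylem nitrate transporter NRT1.8 (3.88 and 12.9 FPKM, 1.73, 1.56 to 1.91), the glutamine synthetase GLN1;2 (276 and 674 FPKM, 1.29, 1.26 to 1.31) and the nitrate reductase NIA1 (11.3 and 23.5 FPKM) were higher. None of 10 counted phosphate genes passed 2-fold.

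The genes with the highest ratios were mostly at low levels with cytokinin, 10 of 12 below 1 FPKM. Among protein-coding genes of at least 10 FPKM in the higher library, DIN11, an oxygenase gene of the 2-oxoglutarate family (AT3G49620, chromosome 3 from 18393747 to 18397050), led with 0.578 FPKM with cytokinin and 261 with JA/cytokinin (8.82, 8.35 to 9.33). CLH1, a chlorophyllase, had 0.0983 and 36.1 FPKM (8.52, 7.37 to 10.01), and AT3G19550, annotated as a glutamate racemase, had 0.170 and 37.3 FPKM (7.77, 6.64 to 9.23). The peroxidase genes AT5G19890 and AT1G49570 had 0.234 and 55.3 FPKM and 0.582 and 66.3 FPKM, and the dirigent-like gene DIR5 had 0.429 and 45.0 FPKM. CYP71A20, a cytochrome P450, had 0.477 and 75.5 FPKM (7.31, 6.83 to 7.83), and AT1G32970, a subtilisin-like protease, 0.118 and 15.2 FPKM (7.00, 6.17 to 7.99). PDF2.1, a defensin-like protein, had 0.251 and 20.7 FPKM (6.36, 5.11 to 8.03). VSP2 was also among these 12, and it, TH8 and AT1G10585 were the 3 of them that had more FPKM with JA/cytokinin than with JA alone. TH8, an h-type thioredoxin, had 6.33 FPKM with cytokinin, 525 with JA/cytokinin and 32.3 with JA. AT1G10585, a bHLH factor, had 0.184 FPKM with cytokinin, 16.9 with JA/cytokinin and 2.74 with JA.

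Among the 12 lowest ratios, AGP30, an arabinogalactan protein of roots, had 134 FPKM with cytokinin and 5.34 with JA/cytokinin (-4.65, -4.83 to -4.47). XTH31, which acts on xyloglucan in the cell wall, had 299.6 and 14.1 FPKM (-4.41, -4.51 to -4.32), and BXL1, a beta-xylosidase, had 38.9 and 3.52 FPKM (-3.47, -3.60 to -3.33). HSP70, a chaperone, had 78.2 and 5.75 FPKM (-3.77, -3.88 to -3.65), and AT5G51440, annotated as an HSP20-like chaperone, had 52.2 and 4.48 FPKM, but of 26 counted genes of that product name 6 were at least 2-fold higher and AT5G51440 alone was at least 2-fold lower. UGT84A1 and UGT84A2, which glucosylate cinnamic acids, had 33.4 and 2.21 FPKM and 30.8 and 3.06 FPKM, beside F3'H, also named TT7. NPQ4, a thylakoid protein that dissipates excess light, had 18.2 and 0.930 FPKM, AT4G22460, a lipid-transfer protein, 38.7 and 2.46 FPKM, AT2G34810, a berberine-bridge-like enzyme, 21.6 and 1.91 FPKM, and ATS3, an embryo-specific protein, 22.2 and 2.29 FPKM.

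Sorted by the difference in FPKM itself, abundant genes came first. The largest gain in a nuclear protein-coding annotation was in AT2G01021, from 949 to 11038 FPKM, but this 102-base annotation has an identical copy at AT3G06365 and is shorter than a fragment, so its value is uncertain. Next were AT2G43535, a knottin-like protein (1888 and 5831 FPKM, 1.63, 1.61 to 1.64), and TRX3, a cytosolic thioredoxin (1620.3 and 4208 FPKM, 1.38, 1.36 to 1.39). AT5G23820, an MD-2-related lipid recognition protein, had 481 and 2911 FPKM (2.60, 2.58 to 2.62), and AT4G22212, a defensin-like protein, had 182 and 2275 FPKM (3.64, 3.60 to 3.68). The TRAF-like gene AT5G26260 had 2423 and 4257 FPKM, and the glycine-rich AT2G05510 and GRP9 had 339.9 and 1923 FPKM and 857 and 2402 FPKM. The largest loss was in EXT3, an extensin of the cell wall, with 7492 and 2757 FPKM (-1.44, -1.45 to -1.43), followed by CHS. EXT13 had 929 and 232 FPKM (-2.004, -2.03 to -1.98) and the extensin-like AT2G43150 3800.1 and 2816 FPKM. GAPC1, a glycolytic enzyme, had 1772 and 786 FPKM (-1.17, -1.19 to -1.16), while GAPC2, the gene at the locus that the study used as its PCR reference, had 961 and 783 FPKM (-0.30, -0.31 to -0.28). The methionine synthase ATMS1 (1912 and 1130.1 FPKM), TIP1;2 and the mitochondrial carrier AAC1 (1957 and 1211 FPKM) made up the rest.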

How the data were processed

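Roots of 7-day-old plants gave 1 polyA-selected, paired-end library (Illumina TruSeq) per condition. The deposited FPKM values were made by the authors with Cufflinks, and Bowtie and the TAIR10 build are named in the submitters' processing notes, with versions not given in the sources used here. The authors also deposited counts of reads and bases per library (101 bases per read).

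Ratios were taken on FPKM as deposited. Genes had to be above 0 in both libraries and to reach 1 FPKM in at least one. Depth was estimated from the step of 1 fragment in low FPKM values with a fragment length of 160 bases, and only 58.8% and 57.3% of the values at or below 5 fragments came out close to whole numbers (within 10% of a fragment), so fragments and intervals are approximate. A floor of 3 fragments corresponds to 0.0663 and 0.0597 FPKM for 1 kb of effective length. No test was possible with 1 library per condition. Calculations used Python 3.11.15, numpy 2.4.6, pandas 2.3.3 and scipy 1.17.1, figures matplotlib 3.10.9, and scripts were tested on simulated data. Near copies (at least 90% identity over at least 50% of the transcript) were searched with blastn and found for 26 of 530 loci. Coordinates, annotations and sequences are from RefSeq TAIR10.1.

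The members and the 38 gene lists (494 loci) were chosen with earlier results of these data known. Named were up to 5 counted members per list with the largest absolute log2 ratio, genes the study names, members against their list, the 12 highest and 12 lowest log2 ratios among protein-coding genes with at least 10 FPKM in the higher library and at least 3 estimated fragments in the lower one, and the 8 largest gains and losses in FPKM. Genes at 0 in exactly one library and at least 20 FPKM in the other were named apart, with no ratio. Other named genes were chosen after their values were seen. Alternatives were pseudocounts of 0.1 and 1, no filter, a filter of 5 FPKM, 3 scalings, and thresholds of 1.5-fold and 3-fold. Some members of the lists are counted in the list totals and medians but are not reported here by name or shown in the plots of single genes.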

Additional observations from a re-analysis of the deposited data

Results flagged for a closer look

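Beside the counted genes, 8 annotations were listed at 0 with cytokinin and at 20 FPKM or more with JA/cytokinin, and were set apart because a signal stood where the cytokinin library had none. The small nucleolar RNA genes AT2G35387, AT1G20015, AT2G20721 and AT1G03502 had 942, 283, 244 and 39.9 FPKM. AT4G23271 had 123 FPKM and AT2G01023 51.9 FPKM. The microRNA genes MIR775 and MIR829 had 31.5 and 22.6 FPKM. No ratio is given, as the other library was listed at 0. All but MIR829 are annotated with exons shorter than the 160 bases of an estimated fragment, and MIR829 (205 bases) is little longer. Fragments were therefore estimated for none of the 8. In the other direction, MIR398a, AT5G42591 and AT4G30097 had 109, 65.2 and 21.3 FPKM with cytokinin and were listed at 0 with JA/cytokinin.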

How the results depend on the processing

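The count of genes at least 2-fold higher with JA/cytokinin, 1662, was 1089 with a pseudocount of 1 and 1043 with a filter of 5 FPKM, and thresholds of 1.5-fold and 3-fold gave 3356 and 797. The count at least 2-fold lower, 1217, was 1935 without a filter, 807 with a filter of 5 FPKM, and 2711 and 462 at 1.5-fold and 3-fold. Of all genes past 2-fold, 57.7% were higher, and 54.4% to 55.3% after 3 scalings, which moved every log2 ratio by 0.03 to 0.04. Of 37 list medians, 9 were past 2-fold, and none of these lost that side or changed direction under the alternatives of pseudocount, filter and scaling. The median of the JAZ genes was 2.11 and of the MYC-branch outputs 2.96 with a pseudocount of 1, and that of the cytokinin response factors, 0.15, was -0.11 with a filter of 5 FPKM. Of 152 named genes past 2-fold, 23 were no longer so with a pseudocount of 1. With the median log2 ratio set to 0, MRN1, AHP4, LOG8 and MYB10 were no longer past 2-fold, and the last 3 of these also with the protein-coding scaling. No paired analysis was possible because there was a single library for either condition, nor could any replicate be left out. The spread between roots of one condition is unknown.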

Other observations

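Families that share 1 product name in the annotation were also described, chosen after the values were seen. Of 108 families with at least 15 counted genes, they had the largest shares past 2-fold upwards or downwards. Large shares are therefore built into the choice. Among all counted genes, 8.5% passed 2-fold upwards and 6.22% downwards. Of 16 Dof zinc finger factors, a plant family with many members in vascular tissue, 8 were at least 2-fold higher with JA/cytokinin and none at least 2-fold lower, with a median log2 ratio of 1.01. HCA2, which acts in the cambium, had 1.43 FPKM with cytokinin and 5.33 with JA/cytokinin, DAG1, known from seed germination, had 18.5 and 56.2 FPKM, and OBP2, which acts on glucosinolate synthesis, had 17.0 and 49.2 FPKM. Of 20 mannose-binding lectin genes, 9 passed 2-fold upwards and 2 downwards, and AT5G35940 had 20.2 and 210 FPKM. The glycosyl hydrolase family that holds BGLU21 and BGLU22 had 6 of 19 genes at least 2-fold higher.

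Families of cell wall and oxidative enzymes held the largest shares of genes at least 2-fold lower, beside 6.22% of all counted genes. Of 51 peroxidases, 19 (37.3%) were at least 2-fold lower, with a median log2 ratio of -0.36. The family spread both ways, as 15 (29.4%) were at least 2-fold higher, beside 8.5% of all counted genes. AT5G64100 had 662 FPKM with cytokinin and 211 with JA/cytokinin, RCI3 had 377 and 117 FPKM and AT4G11290 had 308 and 73.3 FPKM, while AT1G71695 had 11.1 and 267 FPKM. Of 18 dirigent-like genes, the family of ESB1 that guides the coupling of lignin precursors, 7 were at least 2-fold lower and 1, DIR5, at least 2-fold higher. AT2G39430 had 116 and 29.6 FPKM and AT2G21100 had 56.6 and 14.1 FPKM. Of 16 berberine-bridge-like oxidases 7 were at least 2-fold lower and 3 at least 2-fold higher, with AT1G30760 at 19.0 and 107 FPKM among the latter.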
